A study of Mus musculus with 4 samples.

Results

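Liver expression of insulin-like growth factor 1 (Igf1), its receptor gene Igf1r, the acid-labile subunit gene Igfals and the binding protein genes Igfbp1 to Igfbp7 was examined in resveratrol-treated mice with a Wrn helicase mutation, set against untreated wild-type mice. These 10 of 19087 measured genes were represented by 28 of 43379 probes, each probe with 1 gene symbol that equalled a gene of the set. Of the 10 genes, Igfbp1 had by far the lowest ratio as deposited, at -4.18 ± 1.43 on the log2 scale (mean ± SD, n = 4 arrays). The other 9 had means between -0.58 and 0.59. Negative values likely mean less RNA in the treated mutants, though no source states the direction. The 10 genes were chosen partly on the log2 ratios of this same comparison. Their ratios are therefore a description and carry no test here.

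The mutants were male C57Bl/6 mice aged 9 months whose Wrn protein lacks a working helicase domain and which had received resveratrol, a plant polyphenol. They were compared with male wild-type C57Bl/6 mice of that age without resveratrol. All animals ate freely under a reversed light-dark cycle. Wrn encodes a RecQ helicase that is mutated in Werner syndrome, a disorder of premature ageing. Each of 4 two-colour arrays, on which RNA of both animals competes for the same probes, held a different mutant, whereas the wild-type side came from 2 animals used on 2 arrays each. Arrays 1 and 3 shared wild-type animal 2, and arrays 2 and 4 shared wild-type animal 4. Mutant RNA was labelled with Cy5 on the first pair of arrays, 1 and 2, whereas arrays 3 and 4 had it in Cy3. Genotype and treatment differed together and cannot be told apart. The dose and duration of resveratrol, not given in the sources used here, remain unknown.

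IGF1 is a secreted growth factor made largely by hepatocytes, where growth hormone drives its transcription through STAT5. Most circulating IGF1 is carried in a complex with a binding protein, chiefly IGFBP3 or IGFBP5, and the acid-labile subunit, another growth hormone-driven liver product. IGFBP1 behaves differently from these: insulin represses its transcription within a short time by removing FOXO proteins from the nucleus, and fasting, glucocorticoids, amino acid shortage and hypoxia raise it. In a bulk tissue, fewer cells of a type and less RNA per cell cannot be told apart.

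The promoters of the contrasted genes are shown because Igfbp1 and the growth hormone-driven genes are known to be read by different transcription factors. The sequences are the 250 bases before a RefSeq start on the plus strand of GRCm38.p6, with motif matches in capitals. Igfbp1 lies at chr11:7197537-7197786, the Igfals window with the nearer match at chr17:24877981-24878230, and Igf1 at chr10:87860861-87861110.
Igfbp1: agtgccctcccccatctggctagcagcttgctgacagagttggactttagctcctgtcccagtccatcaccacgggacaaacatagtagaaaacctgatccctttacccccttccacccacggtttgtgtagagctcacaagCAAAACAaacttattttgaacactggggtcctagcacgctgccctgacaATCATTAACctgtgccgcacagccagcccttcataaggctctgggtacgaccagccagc
Igfals: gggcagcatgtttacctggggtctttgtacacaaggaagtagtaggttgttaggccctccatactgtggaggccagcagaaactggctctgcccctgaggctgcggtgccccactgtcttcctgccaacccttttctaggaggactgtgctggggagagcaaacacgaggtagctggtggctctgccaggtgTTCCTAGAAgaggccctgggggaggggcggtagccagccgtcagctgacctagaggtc
Igf1: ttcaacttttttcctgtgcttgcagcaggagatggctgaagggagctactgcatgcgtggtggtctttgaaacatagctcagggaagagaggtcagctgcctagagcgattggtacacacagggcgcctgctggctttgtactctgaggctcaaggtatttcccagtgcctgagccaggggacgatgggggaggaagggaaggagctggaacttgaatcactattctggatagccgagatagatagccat

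In each window, from 250 bases before a start to 50 bases after it, 3 motifs were searched on both strands. CAAAACA, the core of the insulin response element to which FOXO proteins bind, was found in the Igfbp1 promoter from -108 to -102, counted from the start base. It occurred in 6.28% of 32851 promoter windows and in no window of the other 9 genes. GTTAATNAT, the core of a site of the liver factor HNF1, was found in the Igfbp1 promoter on the opposite strand from -59 to -51, in the letters ATCATTAAC, and in 0.801% of all windows. It did not overlap the CAAAACA match. TTCNNNGAA, the consensus bound by STAT5, was found in 2 of the 3 Igfals windows, from -58 to -50 in the sequence shown and from -236 to -228 in the window of another start, and in 8.30% of all windows. The Igf1 window held none of the 3 motifs. A match describes letters and does not show binding, and no match says only that these letters are not in this window.

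Values are log2 ratios as the authors deposited them. Positive values likely mean more RNA in the mutant, judged from how the series is titled and how its channels are ordered, since no source states the direction. Whether arrays 3 and 4 were already turned to run the same way as arrays 1 and 2 is also not stated, and values are given as deposited. Correlations over all probes were 0.19 and 0.21 for the pairs of the same dyes and -0.18 to 0.11 for the pairs of opposite dyes. With a trend over the array surface subtracted, all 4 pairs of opposite dyes were above 0, at 0.016 to 0.18, and the pairs of the same dyes stood at 0.21 and 0.23. These values do not settle the orientation. The arrays had SDs of 0.66 to 0.90 over probes and medians from -0.0083 to 0.012. A trend over the array surface held from 12.2% of the variance on array 4 to 34.1% on array 1. Wrn itself stood at 0.12 ± 0.73, above 0 on 2 of 4 arrays, and its 4 probes had means from -0.50 to 0.57, so it checks no label. Ratios alone show no absolute level, so levels of different genes were not compared, and the tissue could not be checked from its markers.

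Igfbp1 had log2 ratios of -2.12, -4.75, -5.42 and -4.43 on arrays 1 to 4. It was low on all 4 arrays, from 4.35-fold lower on array 1 to 42.7-fold lower on array 3, and its mean corresponds to 18.1-fold. Array 1 stood apart, and without it the mean was -4.86 ± 0.50 (SD, n = 3 arrays). Only 8 of the 19087 genes had a lower mean. The spread over the arrays was also wide, since 97.5% of all genes had a smaller SD than Igfbp1. A single probe measured the gene, so no other probe bears on its value. With the signs of arrays 3 and 4 turned, its values would fall on both sides of 0, with a mean of 0.75 ± 4.96.

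**Figure D1:**
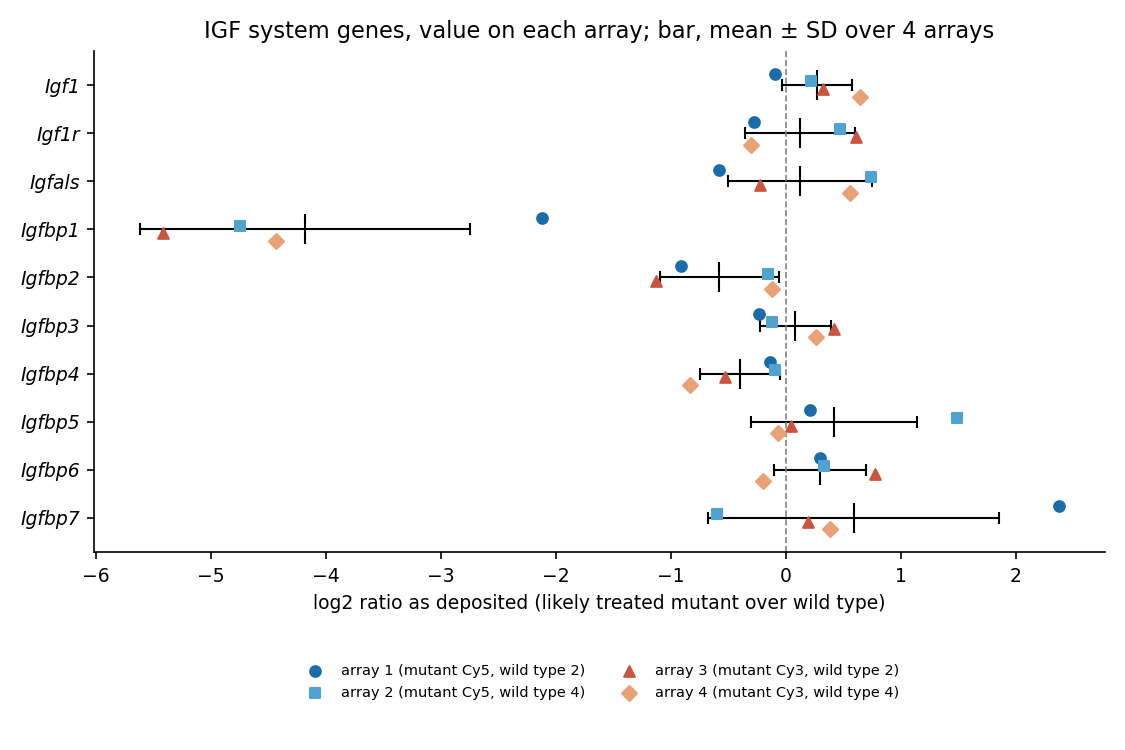
Log2 ratio, likely treated mutant over wild type, of each IGF system gene (rows) on each of the 4 arrays, as the mean over a gene's probes. Symbols are arrays, and the bar gives the mean and SD. The 4 values of Igfbp1, from -5.42 to -2.12, all lie below every value of the other genes, the lowest of which is -1.13 for Igfbp2.

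Across the whole table, limma called 32 of 19087 genes lower, which is 0.168%, and 15 higher, or 0.0786% (Benjamini-Hochberg adjusted p under 0.05). With a trend over the array surface subtracted, 54 genes were called higher and 68 lower. Igfbp1 was among the 32 lower genes and no other gene of the set was called. Its call was lost in 7 of 12 alternatives, among them those without array 2, 3 or 4. Since this contrast chose the set, nothing is read from that count. Igfbp1, Igfbp2 and Igfbp4 were below 0 on all 4 arrays, as were 8.16% of all genes. None of the 10 was above 0 on all 4, as were 7.69% of all genes. The remaining 7 had both signs. These counts hold for the arrays as deposited. With arrays 3 and 4 turned, the gene means opposite in sign to those as deposited were, beside Igfbp1, -0.21 ± 0.36 for Igf1, -0.027 ± 0.50 for Igf1r, -0.045 ± 0.64 for Igfals, 0.047 ± 0.84 for Igfbp2, -0.26 ± 0.13 for Igfbp3 and 0.28 ± 0.48 for Igfbp4. Igfbp5, Igfbp6 and Igfbp7 kept their sign, at 0.43, 0.013 and 0.30. The median of the 10 gene means was 0.13, against a median of -0.0046 over all genes.

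**Figure D2:**
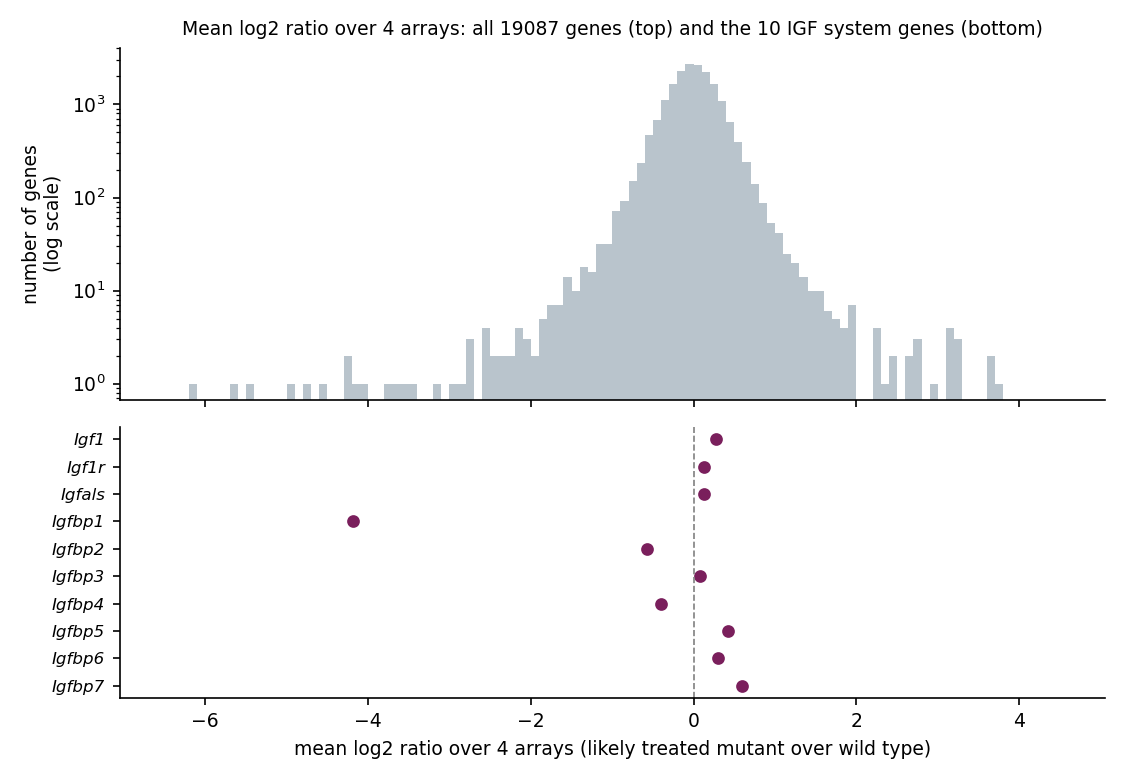
Distribution of the mean log2 ratio over 4 arrays for all 19087 genes (top, log scale of gene counts) and the means of the 10 IGF system genes on the same axis (bottom). Igfbp1 at -4.18 lies in the far lower tail, and the other 9 genes lie between -0.58 and 0.59.

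Igf1 had log2 ratios of -0.0963, 0.22, 0.33 and 0.65 on arrays 1 to 4, with a mean of 0.27 ± 0.31 (SD, n = 4 arrays). It was close to 0 on array 1 and higher on the other arrays. The SD exceeded the mean, and 83.2% of all genes had a lower mean as deposited; turned, the mean was -0.21. Igf1 was the most densely probed gene of the set, with 11 probes, of which 10 carried the same RefSeq mRNA accession. Those 10 averaged -0.16, 0.37, 0.46 and 0.67 on arrays 1 to 4, with SDs between probes of 0.21, 0.10, 0.0664 and 0.11. All 10 were above 0 on arrays 2, 3 and 4, and 3 of 10 on array 1. Their mean over the arrays was 0.34 ± 0.35. Probes on 1 array therefore differed less than the arrays did, and the spread of Igf1 lay mainly between arrays. Among 216 accessions with 10 or more probes, Igf1 had the second smallest SD between probes, 0.12 as a mean over arrays, where the median was 0.64. Whether these probes share a sequence is not stated. The remaining Igf1 probe, annotated with a cDNA clone, read 0.50, -1.31, -1.02 and 0.45, far from the others on arrays 2 and 3.

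Igfals, whose product stabilises circulating IGF1, had log2 ratios of -0.58, 0.74, -0.22 and 0.56 from a single probe, with a mean of 0.13 ± 0.63 (SD, n = 4 arrays). It was below 0 on both arrays with wild-type animal 2, at a mean of -0.40, and above 0 on both with wild-type animal 4, at 0.65. These arrays also held different mutants, so mutant and wild-type animals cannot be told apart here. Igf1r, the cell surface receptor for IGF1, is known to be scarce in adult hepatocytes. Its values were -0.27, 0.47, 0.61 and -0.30, with a mean of 0.13 ± 0.48. Its 5 probes disagreed on every array, for example from -1.61 to 0.58 on array 1 and from -0.69 to 1.73 on array 2. The only Igf1r probe with a RefSeq mRNA accession had a mean of -0.36 ± 1.05, opposite in sign to the gene mean.

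The contrast between insulin-repressed Igfbp1 and growth hormone-driven Igf1 and Igfals was a difference in log2 ratio of -1.78, -5.22, -5.47 and -5.03 on arrays 1 to 4. Its mean was -4.38 ± 1.74 (SD, n = 4 arrays), so Igfbp1 stood 20.8-fold lower relative to the mean of the other pair. Arrays 2 to 4 lay close together, and array 1 stood apart with a difference much nearer to 0. Without array 1 the mean was -5.24 ± 0.22. Igf1 and Igfals differed from each other by 0.15 ± 0.49, with Igf1 the higher on 3 of 4 arrays. On array 1, Igfbp1 was nearest to 0 while Igf1 and Igfals both had their lowest values. With arrays 3 and 4 turned, the contrast was 0.87 ± 5.25.

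**Figure D3:**
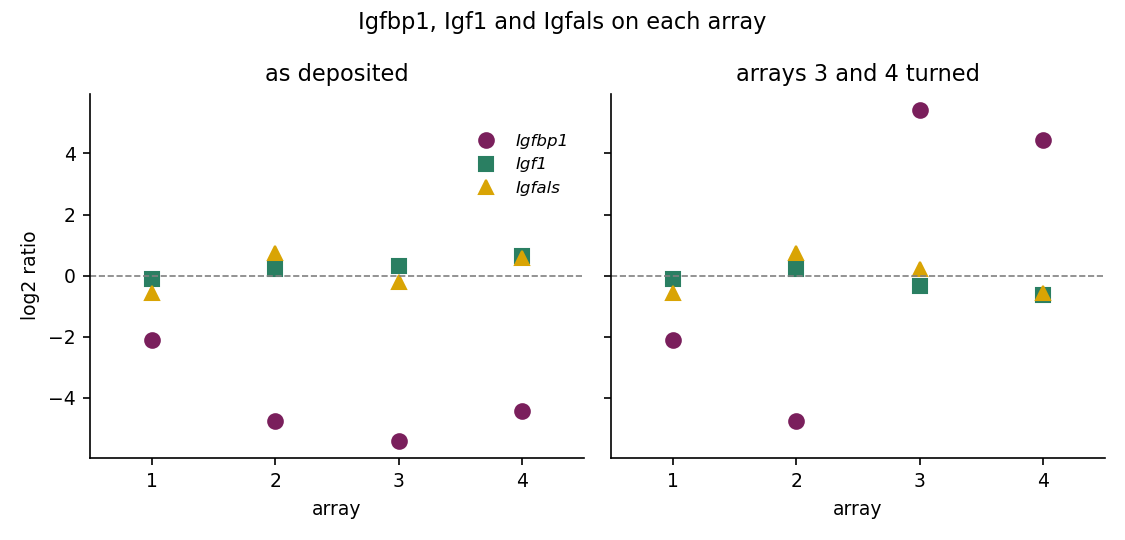
Log2 ratio of Igfbp1, Igf1 and Igfals on each array, as deposited (left) and with the signs of arrays 3 and 4 turned (right). As deposited, Igfbp1 lies at -5.42 to -2.12 while Igf1 and Igfals lie between -0.58 and 0.74. Turned, Igfbp1 has opposite signs on arrays 1 and 2 against 3 and 4.

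Igfbp3, which encodes the main carrier of circulating IGF1, had log2 ratios of -0.23, -0.12, 0.42 and 0.26, with a mean of 0.0834 ± 0.31 (SD, n = 4 arrays). It was below 0 on both arrays with the mutant in Cy5, at a mean of -0.18, and above 0 on both with the mutant in Cy3, at 0.34. A dye difference and a difference between these mutants cannot be told apart. The probe with a RefSeq mRNA accession had a mean of -0.24 and a cDNA probe -0.12, while the remaining probe stood at 0.61 and was above 0 on every array. Igfbp5, also a partner in the circulating complex, had values of 0.21, 1.49, 0.0425 and -0.0634, and a mean of 0.42 ± 0.72. Its mean rests on array 2, where its 2 probes read 0.74 and 2.24; without that array it was 0.065.

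Igfbp2, a binding protein that is abundant in fasting and fetal liver, had log2 ratios of -0.91, -0.15, -1.13 and -0.12, with a mean of -0.58 ± 0.52 (SD, n = 4 arrays). All 4 values were below 0, with the arrays of wild-type animal 2 at a mean of -1.02 and those of wild-type animal 4 at -0.14. Igfbp4, a hepatocyte product that binds IGF1 and restrains it, had values of -0.14, -0.0912, -0.53 and -0.84, and a mean of -0.40 ± 0.35. It was close to 0 with the mutant in Cy5, at a mean of -0.11, and lower with the mutant in Cy3, at -0.68. Its 2 probes read alike, at -0.22 and -0.058 on array 1, where they differed most. As deposited, Igfbp2 and Igfbp4 were, beside Igfbp1, the only genes of the set whose mean was larger in size than 1 SD; turned, only that of Igfbp3 was, at -0.26 ± 0.13.

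Igfbp6, which prefers IGF2 to IGF1, had log2 ratios of 0.29, 0.33, 0.77 and -0.20 and a mean of 0.30 ± 0.40 (SD, n = 4 arrays). Igfbp7, a secreted protein of vessel and stromal cells that binds IGFs weakly, had values of 2.38, -0.59, 0.19 and 0.39. Its mean of 0.59 ± 1.26 rested on array 1, and 95.7% of all genes had a smaller SD over the 4 arrays. Without array 1 the mean was -0.0043, and with arrays 3 and 4 turned it was 0.30. Both genes had 1 probe each.

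**Figure D4:**
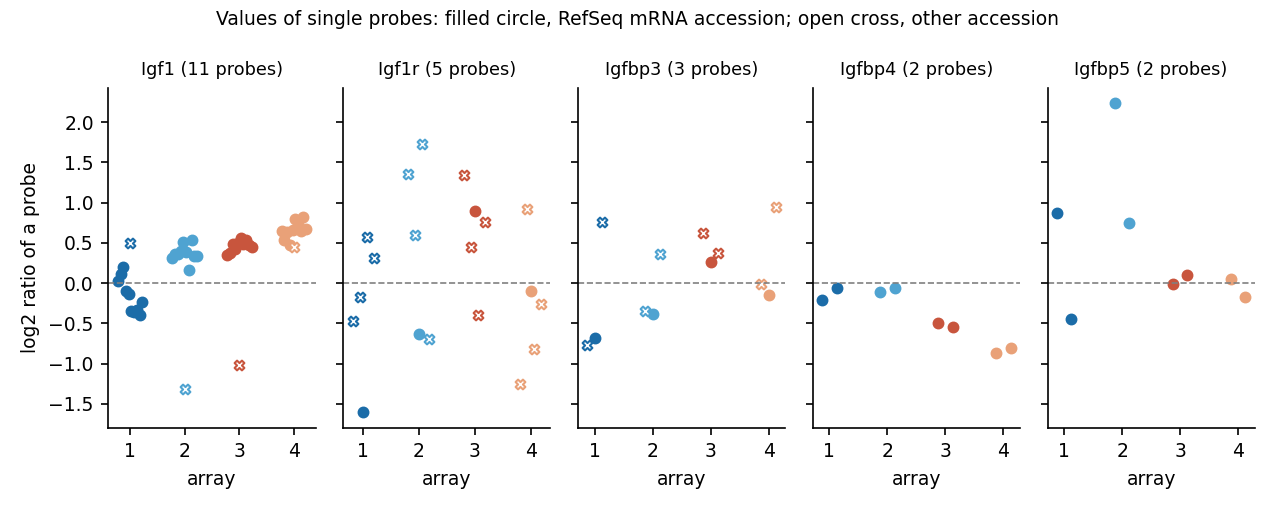
Log2 ratio of single probes of the 5 genes with more than 1 probe, by array; filled circles are probes with a RefSeq mRNA accession, open crosses the others. The 10 RefSeq probes of Igf1 cluster on each array, the 2 probes of Igfbp4 nearly coincide, and the 5 probes of Igf1r are scattered on both sides of 0.

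Igfbp1 and Igfbp3 are direct neighbours on chromosome 11, with 0 protein-coding genes between them in the RefSeq annotation of GRCm38.p6. Their log2 ratios differed by -1.89, -4.63, -5.84 and -4.69 on arrays 1 to 4, with a mean of -4.26 ± 1.68 (SD, n = 4 arrays). The low ratio of Igfbp1 was thus not shared by the adjacent gene. Igfbp2 and Igfbp5 are likewise neighbours on chromosome 1. Igfbp2 was the lower of that pair on all 4 arrays, with differences of -1.12, -1.64, -1.17 and -0.056. Set against the mean of Igfbp2 to Igfbp7, Igfbp1 was lower by -2.39, -4.89, -5.38 and -4.34.

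The genes with profiles nearest to Igfbp1 were found by the root mean square difference over the 4 arrays. Cyp4a10, a fatty acid hydroxylase gene and PPARA target, was nearest at 0.46, with ratios of -2.56, -4.20, -5.19 and -4.98. Like Igfbp1, it was nearest to 0 on array 1 and lowest on array 3. The cytochrome P450 gene Cyp2b13 followed at 0.81, Cyp4a31 at 1.08, Ehhadh, an enzyme of peroxisomal beta-oxidation, at 1.09, and the steroid hydroxylase gene Cyp17a1 at 1.10. No gene lay within 0.25 of Igfbp1. For Igf1, by contrast, 546 genes lay within 0.25, and the nearest were Bnip2 at 0.0268, Plcb3 at 0.0598, Fam135b, Olfr850 and Treml1. For Igfals 94 genes lay within 0.25, the nearest being Zswim3 at 0.0788, Qrsl1, Hinfp, Defb7 and Ccnt1. Such likeness over 4 arrays is common for ratios close to 0. The measure also keeps the level of a ratio, so the genes nearest to Igfbp1 are others with very low ratios. Shared regulation was not tested.

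Of 31 other measured IGF system genes, none of which was in the set, 0 passed limma's adjusted threshold in either direction over all genes, and 15 had means above 0. The list median was -0.0021, against -0.0046 over all genes. Igf2, the fetal growth factor, stood at 0.0630 ± 0.22, and Igf2r, which clears IGF2, at 0.21 ± 0.24 (SD, n = 4 arrays). The insulin receptor gene Insr was at 0.0171 ± 0.17 and Irs1, which relays insulin and IGF1 receptor signals, at 0.13 ± 0.37. The means largest in size were those of the receptor adaptors Grb14, at -0.53 ± 0.31 and below 0 on all 4 arrays as deposited, and Grb10, at 0.45 ± 1.04. With arrays 3 and 4 turned, Grb14 stood at -0.0036. At an unadjusted p under 0.05 the whole table held 1268 genes. Irs2 was not analysed here.

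Of 20 measured growth hormone signalling genes, 0 passed, and the list median was -0.12. The growth hormone receptor gene Ghr stood at 0.33 ± 0.40 (SD, n = 4 arrays), with values of -0.23, 0.30, 0.64 and 0.60. Like Igf1, it was lowest on array 1. Stat5a and Stat5b, which carry the growth hormone signal to DNA, were at -0.19 ± 0.25 and 0.12 ± 0.56. The feedback inhibitors Socs2 and Cish, both STAT5 targets, stood at -0.74 ± 0.76 and -0.32 ± 1.27. Cish was below 0 on arrays 1 and 2 and above 0 on arrays 3 and 4. The largest means were those of the epidermal growth factor receptor gene Egfr, at 1.75 ± 0.81 (limma adjusted p = 0.138), and the STAT5-opposing repressor gene Bcl6, at 1.44 ± 1.16 (limma adjusted p = 0.499). Both were above 0 on all 4 arrays. Egfr read 0.54 on array 1 and 2.15 to 2.16 on the others, as a mean over 24 probes. Probes of 1 RefSeq mRNA averaged 2.30, 2.61 and 2.76 on arrays 2 to 4, and those of another 2.28, 2.01 and 1.86 (11 probes each). The nearly equal gene means thus come partly from averaging probes that differed. Without array 1, Egfr passed with limma at 2.16 (adjusted p = 0.0412, with a range of 0.0372 to 0.895 over the alternatives). That small spread is not one of single probes.

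Of 22 measured insulin and FOXO responsive genes, 1 was called higher and 0 lower, with a list median of 0.0280. The gene that rose was Srebf1, which encodes an insulin-induced activator of fatty acid synthesis, with log2 ratios of 2.88, 3.88, 4.37 and 3.77 and a mean of 3.72 ± 0.62 (limma adjusted p = 0.0100). Array 1, on which Igfbp1 was nearest to 0, was also the array on which Srebf1 was lowest. Of the 5 genes with profiles nearest to Igfbp1, Cyp4a10, Cyp2b13, Cyp4a31 and Ehhadh were likewise nearest to 0 on array 1, and Cyp17a1 was not. Egfr was also nearest to 0 there, and Bcl6 was not. Array 1 also had the largest surface trend, at 34.1% of its variance, and held a mutant of its own. Whether either bears on these values was not tested. Pdk4, a kinase that shuts down glucose oxidation in fasting, stood at -2.19 ± 1.45 (SD, n = 4 arrays) and did not pass. Its values were -0.63 and -1.29 on the arrays of wild-type animal 2, and -3.51 and -3.34 on those of wild-type animal 4. The call of Srebf1 was lost without array 2 or array 4, and with arrays 3 and 4 turned its mean was -0.34.

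Of 18 measured amino acid response and ER stress genes, 0 passed, with a list median of -0.0405. The hormone gene Fgf21 stood at -2.15 ± 1.02 and the lipoprotein receptor gene Vldlr at -1.33 ± 0.63 (SD, n = 4 arrays), both below 0 on all 4 arrays. Fgf21 read -1.21 and -1.33 on the arrays of wild-type animal 2, and -3.04 and -3.03 on those of wild-type animal 4. Vldlr read -1.76 and -1.97 with the mutant in Cy5, and -0.78 and -0.81 with it in Cy3. Each array also held a different mutant, so the sources of these differences cannot be told apart. Among 13 glucocorticoid responsive genes, 0 were higher and 2 lower, and the list median was -0.33. Those 2 were the metallothionein genes Mt2, at -6.14 ± 0.99, and Mt1, at -4.58 ± 1.42 (limma adjusted p = 0.00509 and 0.0400), which metals also induce. The call of Mt2 was lost without array 2 or 4, that of Mt1 without array 1, 2 or 4, and with arrays 3 and 4 turned both means were above 0, at 0.73 and 0.68. Of 19 hypoxia responsive genes, 0 passed, with a median of -0.0495. Ldha, which makes lactate from pyruvate, stood at -1.02 ± 0.87 and Bnip3, a mitophagy gene, at -0.81 ± 0.40.

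**Figure D5:**
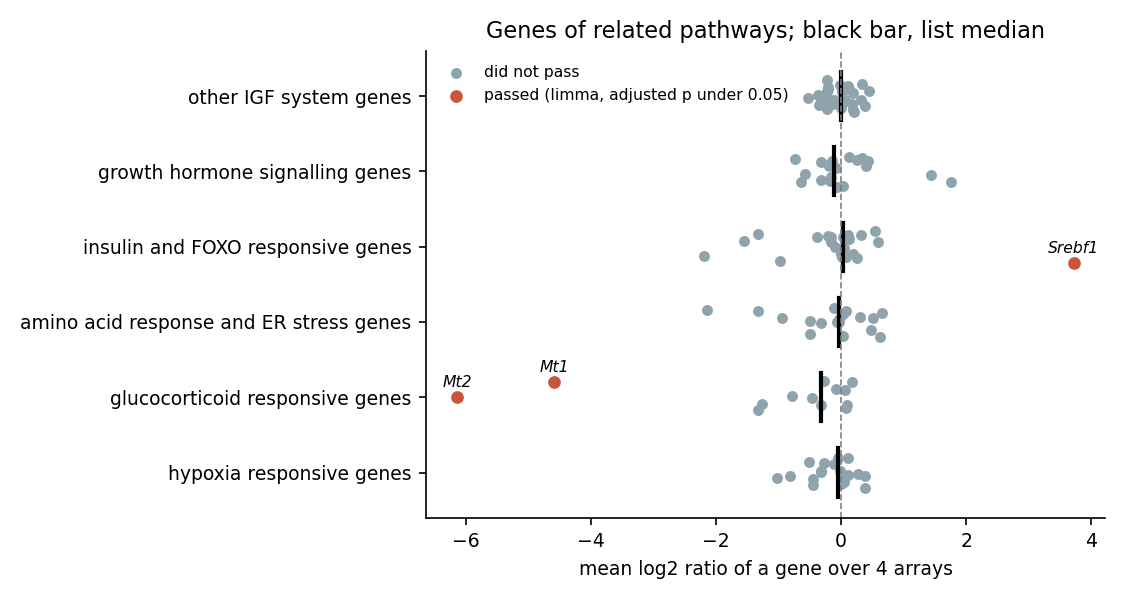
Mean log2 ratio over 4 arrays of the measured genes of 6 related pathways; each point is a gene, and the black bar is the list median. Genes past limma's adjusted threshold are coloured and named: Srebf1 at 3.72, Mt1 at -4.58 and Mt2 at -6.14. The 31 other IGF system genes lie between -0.53 and 0.45.

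Several binding proteins come from cells other than hepatocytes, so marker lists are given beside them. The genes named are the 2 with the largest means in size, and counts of the other sign are as deposited. Of 10 hepatocyte markers 0 passed, with a median of 0.0184 and array means of -0.0922 to 0.23. Ass1 was at 1.19 and Ttr at 0.97, while 4 of the 10 had means below 0. Endothelial markers, relevant to Igfbp7 and Igfbp3, had 0 of 12 past the threshold, a median of -0.0663 and array means of -0.22 to -0.0705. Egfl7 was at -0.71 and Ptprb at -0.50, while 5 of the 12 had means above 0. Stellate cell markers had 0 of 13, a median of -0.0183 and array means of -0.17 to 0.0144. Lrat was at -0.58 and Colec11 at -0.53, while 6 of the 13 had means above 0. On array 1, where Igfbp7 read 2.38, the endothelial and stellate list means were -0.22 and -0.0593. Mesothelial markers had 0 of 8, a median of 0.30 and array means of 0.0541 to 0.35. Krt8 was at 0.82 and Msln at 0.41, while 2 of the 8 had means below 0. Krt8 and Krt18 of this list are also made by hepatocytes, so it does not mark mesothelial cells alone. Kupffer cell markers had 0 of 10, a median of 0.18 and array means of -0.0921 to 0.22, with Folr2 at 0.57 and Vsig4 at -0.49. Bile duct markers had 0 of 6, a median of 0.0223 and array means of -0.48 to 0.50, with Cdh1 at 0.72 and Epcam at -0.39. Lymphocyte markers had 0 of 11, a median of 0.24 and array means of -0.0521 to 0.67. Cd3g was at 0.79 and Ighm at 0.57, while 2 of the 11 had means below 0. Red blood cell markers had 1 of 6 higher, Alas2 at 2.45 ± 0.48 (limma adjusted p = 0.0324), with Car2 at -1.35, a median of 0.63 and array means of 0.31 to 0.78. The call of Alas2 was lost without array 2, 3 or 4, with arrays of equal spread and with arrays 3 and 4 turned. The part of blood or of any other cell type in the ratios of the IGF system genes was not tested.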

How the data were processed

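Liver RNA of 4 treated mutants and 2 wild-type mice was measured on 4 two-colour arrays. The authors deposited 1 log2 ratio per probe and array, with 0 missing values. The submitters' processing notes name limma without a version; background correction, normalization, filters, the log base and the direction were not stated. Log base 2 is taken from limma's convention, and a natural log would make the folds larger. Intensities were not used here, so no probe could be called above background.

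Of the probes, 33653 had 1 gene symbol, 56 several and 9670 none in the platform annotation. Ratios of probes with the same single symbol were averaged. limma 3.58.1 in R 4.3.3 (intercept only, eBayes, two-sided, Benjamini-Hochberg over 19087 genes, threshold 0.05) was fitted to all genes and tested on simulated data. Those data had independent normal errors and no shared wild-type animal, dye difference or surface trend. They therefore cannot show how the fit behaves under the design of these arrays. The 2 wild-type animals were shared, so the arrays are not fully independent. Nothing says whether RNA extracts were separate, and p-values measure the spread between these arrays. Their number limits the precision. Promoters came from RefSeq (GRCm38.p6).

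The genes and the 14 lists were chosen with earlier results of these data known. Older list symbols were updated through RefSeq synonyms. From each list the text names genes past the threshold, the 2 largest means and fixed regulators, plus the 5 nearest profiles of Igfbp1, Igf1 and Igfals. Alternatives were turned arrays, equal spread, median over probes, a subtracted surface trend (running median over 11 x 11 spots in 85 columns), a wild-type block, a dye term, single probes, each array left out and, added after seeing the data, RefSeq mRNA probes only.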

Additional observations from a re-analysis of the deposited data

Results flagged for a closer look

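Of 91 sets of 4 array values examined, 10 had 1 array far from the other 3 relative to the whole range. For independent sets chance gives about 1 in 20. These sets overlap, since probes, gene means and differences reuse the same values on the same 4 arrays. The count is therefore not a test against that rate. In 7 of the 10 it was array 1. The difference between Igfbp1 and the mean of Igf1 and Igfals was -1.78 on array 1, and that between Igfbp1 and Igfals was -1.54. A pair of Igf1 probes read -0.0951 and -0.33 on array 1, while the other arrays lay between 0.39 and 0.65. Irs1 read -0.43, Egfr 0.54 and Ldha 0.28 on array 1. On array 2, the mean of the 9 genes other than Igfbp1 was 0.25 and Colec11 read -0.26. Mt1 read -6.70 on array 3.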

How the results depend on the processing

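The orientation of arrays 3 and 4 decides the main result. With those arrays turned, 0 genes passed (1518 at an unadjusted p under 0.05, limma), Igfbp1 stood at 0.75 and its difference from the mean of Igf1 and Igfals at 0.87. Signs also changed for 6 of the other 9 genes of the set, whose turned means run from -0.26 to 0.28, and for Srebf1 (-0.34), Mt2 (0.73), Mt1 (0.68), Egfr (-0.41), Bcl6 (-0.21), Ghr (-0.30), Stat5a (0.18), Stat5b (-0.27), Irs1 (-0.17), Pdk4 (0.12), Fgf21 (0.0291), Ldha (0.43), Bnip3 (0.16), Ttr (-0.51), Egfl7 (0.0138), Colec11 (0.0921), Folr2 (-0.27), Cdh1 (-0.56), Msln (-0.24), Cd3g (-1.21) and Ighm (-0.0742). The insulin, glucocorticoid and red blood cell lists then had 0 genes called. Against 47 genes as reported (15 higher, 32 lower), equal spread gave 15 (4 higher, 11 lower) and 0 red blood cell genes. Subtracting the surface trend gave 122 (54 higher, 68 lower), with 2 insulin, 2 red blood cell and 1 hepatocyte gene, and put Igf2r at -0.0687. Treating the shared wild-type animal as a block gave 194 (84 higher, 110 lower), with 1 growth hormone, 2 insulin, 1 amino acid, 1 hepatocyte and 2 red blood cell genes. The correlation fitted for that block was -0.37, so arrays with the same wild-type animal were less alike than others. A negative value narrows the standard error of a mean, so the block count is not a stricter one. Counts without 1 array ran from 0 to 34 over all genes (0 without array 2 or 4, with 940 and 926 at an unadjusted p under 0.05, and 9 without array 3). They ran from 0 to 1 for the growth hormone, insulin and red blood cell lists and from 0 to 2 for the glucocorticoid list. Means that changed sign without 1 array ran from -0.035 to 0.27 for Igf1r, -0.079 to 0.36 for Igfals, -0.030 to 0.19 for Igfbp3, -0.0043 to 0.99 for Igfbp7, -0.0313 to 0.74 for Grb10, -0.0012 to 0.14 for Igf2, -0.0371 to 0.0976 for Insr, -0.0551 to 0.38 for Stat5b, -0.73 to 0.14 for Cish and -0.17 to 1.21 for Cd3g. Igfbp1 ran from -4.86 to -3.77 without 1 array, and its contrast from -5.24 to -4.01. Igfbp1 was past the threshold in 5 of 12 alternatives, and not without array 2, 3 or 4, with equal spread, a dye term, single probes or turned arrays. Its only probe has a RefSeq mRNA accession, so the median over probes and RefSeq probes only could not change its ratios. Its calls in those alternatives add nothing for this gene. Another of the 5 calls came from the block with its negative correlation. Other IGF system genes had 0 called in every alternative in which the list was counted. The cause of these changes was not tested. No paired analysis was possible because the array numbers are shared by no second group of ratios; each ratio already sets a mutant against a wild-type animal on its own array.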
